A study of Aquarana catesbeiana with 18 samples.

Results

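Keratin genes of the American bullfrog (Aquarana catesbeiana) were followed through 18 RNA sequencing libraries of back skin, eyes and liver. The members are the genes that RefSeq describes as type I or type II keratins or names keratin with a number, and 58 of the 24636 genes in the count table met this rule. Of these, 33 are type I, 24 are type II, and KRT222 is a shortened relative of the type I genes. All but KRT18 and KRT222 carry a locus number and a name by similarity, such as keratin 19-like. The number in a name therefore marks a similarity and not a proven counterpart. Symbols in the count table can differ from these names. The keratin 19-like LOC141114307, LOC141114309 and LOC141114310 carry the symbols KRT17, KRT14 and KRT15. The type II genes LOC141127260 and LOC141127267, named cochleal-like, carry KRT5 and KRT6C. The descriptions are used as names here. Keratin-associated proteins and keratinocyte products were left out by the rule.

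Each tissue was sampled from wild-type and from albino frogs, with 3 libraries in each of the 6 groups. The labels give tissue and genotype only: no age, sex, treatment or causative allele, and no statement that replicates are separate animals. The p-values therefore measure the spread between these libraries, which may be technical. Total RNA was used, and the libraries held between 34.3 and 39.2 M counts.

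Keratins form the intermediate filaments of epithelial cells. A filament is built from pairs of 1 type I (acidic) and 1 type II (basic to neutral) chain, so an epithelium has to express at least 1 gene of each type. In mammals keratins 8 and 18 are the pair of single-layered epithelia such as hepatocytes, keratins 7 and 19 are found in ducts and other simple epithelia, keratin 10 marks the differentiating layers of the epidermis, and keratin 12 marks the corneal epithelium. The name cochleal-like, given to most bullfrog type II members, comes from a keratin described in the chicken inner ear.

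In the gene order of RefSeq assembly ASM4218655v1, the members lay in 3 runs, a pair and a single gene, when up to 5 other protein-coding genes were allowed between neighbours. The first run holds 23 type II genes and ends with the keratin 8-like gene LOC141127270 next to KRT18, within a stretch of 28 protein-coding genes. In mammals KRT8 and KRT18 are likewise neighbours at an end of the type II cluster. A second run of 10 type I genes, in a stretch of 14, includes the keratin 19-like series LOC141114307 to LOC141114314. The third run, 20 type I genes with KRT222 at its end, lay in a stretch of 23. The keratin 8-like gene LOC141147228 and the keratin 18-like gene LOC141147229 are adjacent to each other, and the keratin 18-A-like gene LOC141108753 stands alone. The sources used here do not say how reads that match several of these similar copies were counted, so single values within a run of copies are uncertain to that extent.

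Markers of hepatocytes and photoreceptors followed the labels. The summed level of 9 hepatocyte genes was 117540.0 to 157241 counts per M counts of the library (CPM) in liver and at most 4.71 elsewhere, and that of 7 photoreceptor genes was 23042 to 60948 CPM in eyes and at most 45.9 elsewhere. The epithelial lists were not particular to liver or eyes. The 7 matched markers of bile duct and simple epithelium summed to 1095 to 1915 CPM in skin, 127 to 208 in liver and 122 to 260 in eyes. The 3 matched corneal and conjunctival markers summed to 497 to 905 CPM in skin and 402 to 632 in eyes. Several libraries stand apart in ways that touch the keratins. The 6 matched lens genes summed to 46601 to 71191 CPM in wild-type eyes, but to 18.6, 5.35 and 28552 CPM in albino eyes 1, 2 and 3, with BFSP1 and BFSP2 at 0 counts in albino 1 and BFSP1 at 0 in albino 2. Albino skin 2 had 188 CPM of 10 skeletal muscle genes against 1.30 to 22.9 CPM in the other skin libraries. Liver wild-type 3 held counts of 29 keratin genes, against 14 to 21 in the other liver libraries. Liver wild-type 2 and 3 were the most alike of all 18 within-group pairs, with 43.3% of genes differing beyond sampling noise against 56.5% to 78.2% in the others.

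Skin expressed the most keratin. The 58 genes took 6.87% to 8.26% of all counts in wild-type skin and 6.35% to 10.9% in albino skin, against 0.170% to 0.436% in eyes and 0.0215% to 0.0383% in liver. At a mean of at least 1 FPKM (fragments per kilobase of transcript, scaled to the library's counted reads) over the 6 libraries of a tissue, 35 members were expressed in skin, 20 in eyes and 6 in liver. In these bulk samples, fewer cells of a type and less RNA per cell cannot be told apart. By this limit 16 genes were skin only, 14 were shared by skin and eyes, 5 were found in all 3 tissues, 1 was found only in eyes, 1 only in liver and 21 in none. Genes near the limit included LOC141114314 in skin (1.02 FPKM) and LOC141114312 and LOC141114335 in liver (1.09 and 0.503 FPKM). In eyes they included LOC141114306, LOC141114324, LOC141114327 and LOC141147228 (0.811, 0.819, 1.09 and 1.31 FPKM). LOC141114306, counted in none, averaged 1.04 FPKM in wild-type eyes and 0.583 FPKM in albino eyes. LOC141114312 reached the limit in eyes and liver through its albino libraries alone.

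**Figure D1:**
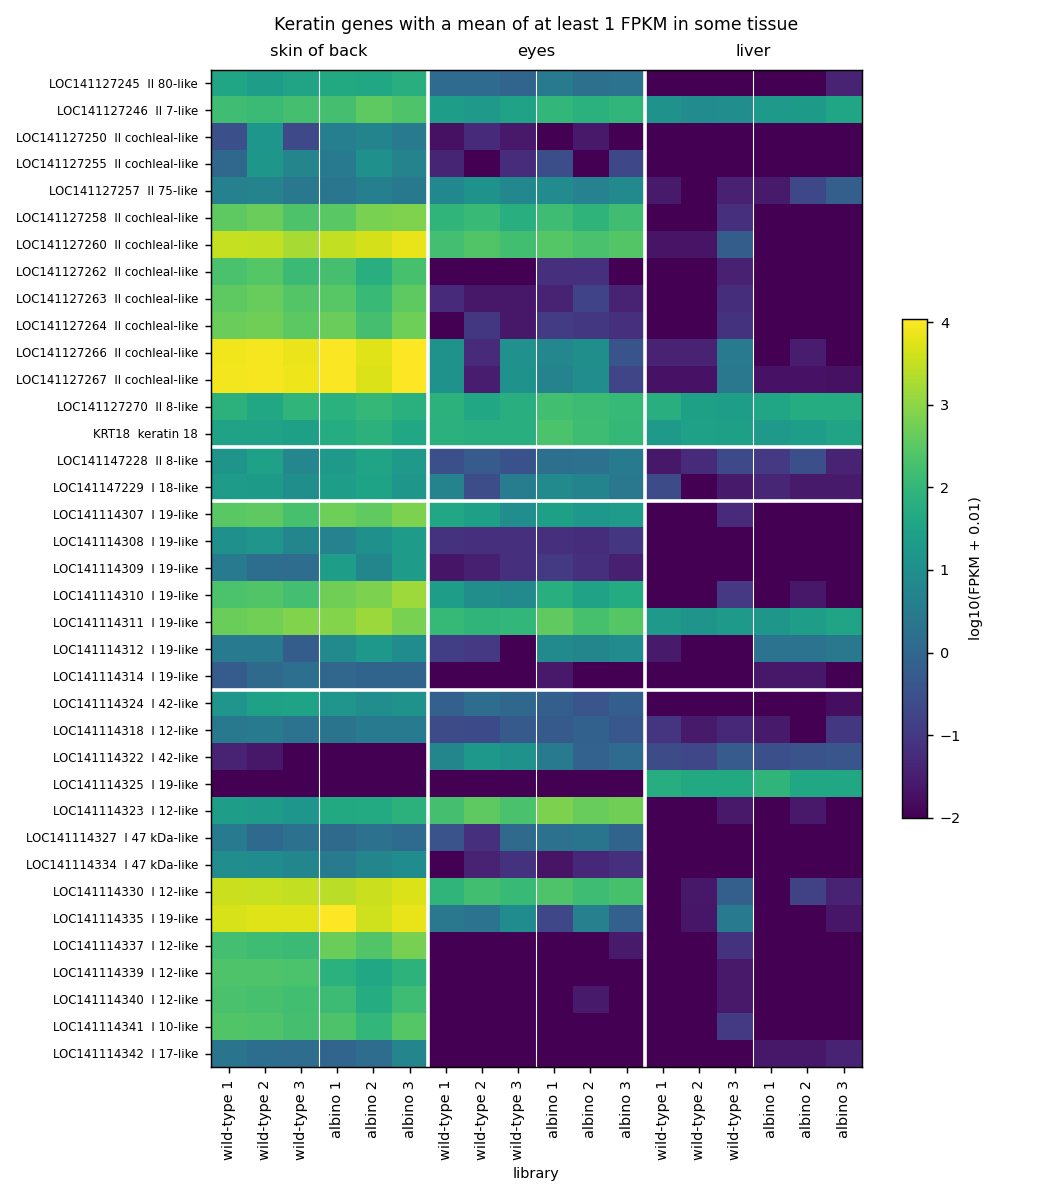
Level of the 37 keratin genes with a mean of at least 1 FPKM in some tissue, as log10(FPKM + 0.01) by colour. Columns are the 18 libraries and rows follow gene order, with white lines between runs. The large block of skin genes, the row that is bright only in liver (LOC141114325) and the rows present in every tissue can be seen.

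The most abundant members of skin were a pair of neighbouring cochleal-like type II genes. LOC141127267 stood at 8590.4, 9228 and 7833 FPKM in wild-type skin and at 9981, 5318 and 10874 FPKM in albino skin. Its neighbour LOC141127266 had 8208 ± 858 FPKM in wild-type and 8736 ± 2775 FPKM in albino skin (SD, n = 3, as for all means of groups here). Both were lowest in albino 2, and the groups overlapped.

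The keratin 19-like LOC141114335 followed with 4807, 5455 and 5650.0 FPKM in wild-type and 10954, 4111 and 6806 FPKM in albino skin. It was the most abundant type I member, and in albino skin 1 the most abundant member of all. Next came the cochleal-like LOC141127260, at 2719.7 ± 829 against 4810.4 ± 1912 FPKM, and the keratin 12-like LOC141114330, at 3357 ± 270.3 against 3812 ± 1299 FPKM. LOC141114311, LOC141114310 and LOC141127258, the other members among the 8 highest in skin, had means over its 6 libraries of 775, 551 and 456 FPKM. The 5 highest members of each skin library made up 83.1% to 89.0% of its summed keratin FPKM.

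One further gene bears on the balance of the types. LOC141114336, which RefSeq describes in other words as a type I cytoskeletal keratin-3-like protein, lies outside the rule and was examined after its values were seen. It was higher than any member in skin, with 12546, 14764 and 12837 FPKM in wild-type and 18473, 11255 and 20201 FPKM in albino libraries. Without it the ratio of type I to type II FPKM in skin lay between 0.471 and 0.666, and with it between 1.06 and 1.41. In eyes the ratio without it was 1.38 to 2.31, and in liver 1.22 to 2.52.

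**Figure D2:**
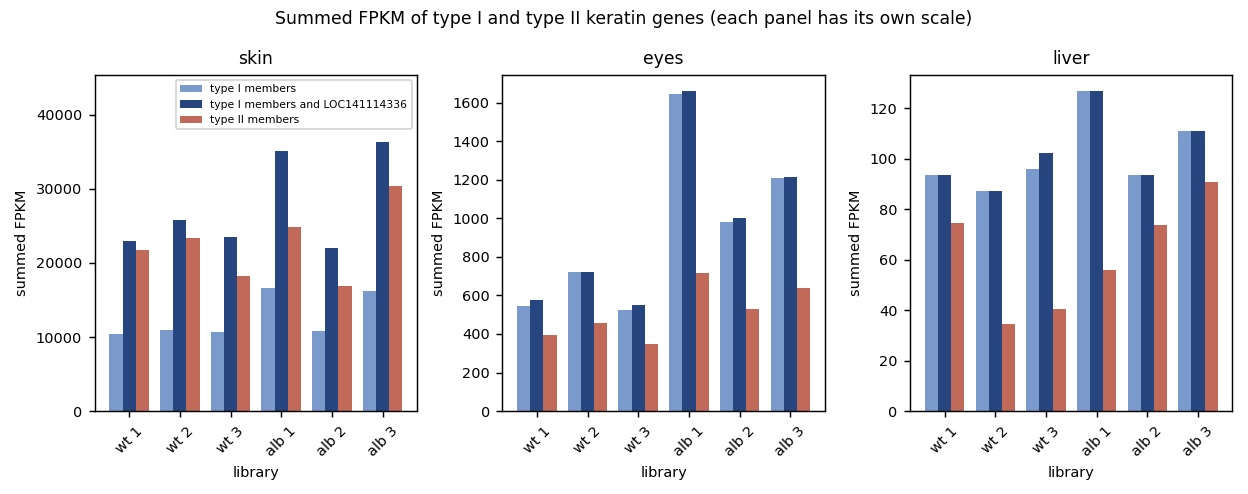
Summed FPKM of type I and type II keratin genes in each library, with and without LOC141114336. Each panel is 1 tissue with its own scale from 0, and wt and alb stand for wild-type and albino. In skin the type I bars pass the type II bars only when LOC141114336 is added.

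Abundance changed sharply between neighbours. In the type II run, 8 members between LOC141127245 and LOC141127258 had means under 1 FPKM in every tissue, while the LOC141127262 to LOC141127267 stretch stood at 176 to 8637 FPKM in skin. In the third run, the keratin 12-like LOC141114337, LOC141114339 and LOC141114340 and the keratin 10-like LOC141114341 were adjacent members at 147 to 305 FPKM in skin. These 4 had at most 0.0179 FPKM in any eye library and at most 0.0988 FPKM in any liver library, the latter in wild-type 3.

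**Figure D3:**
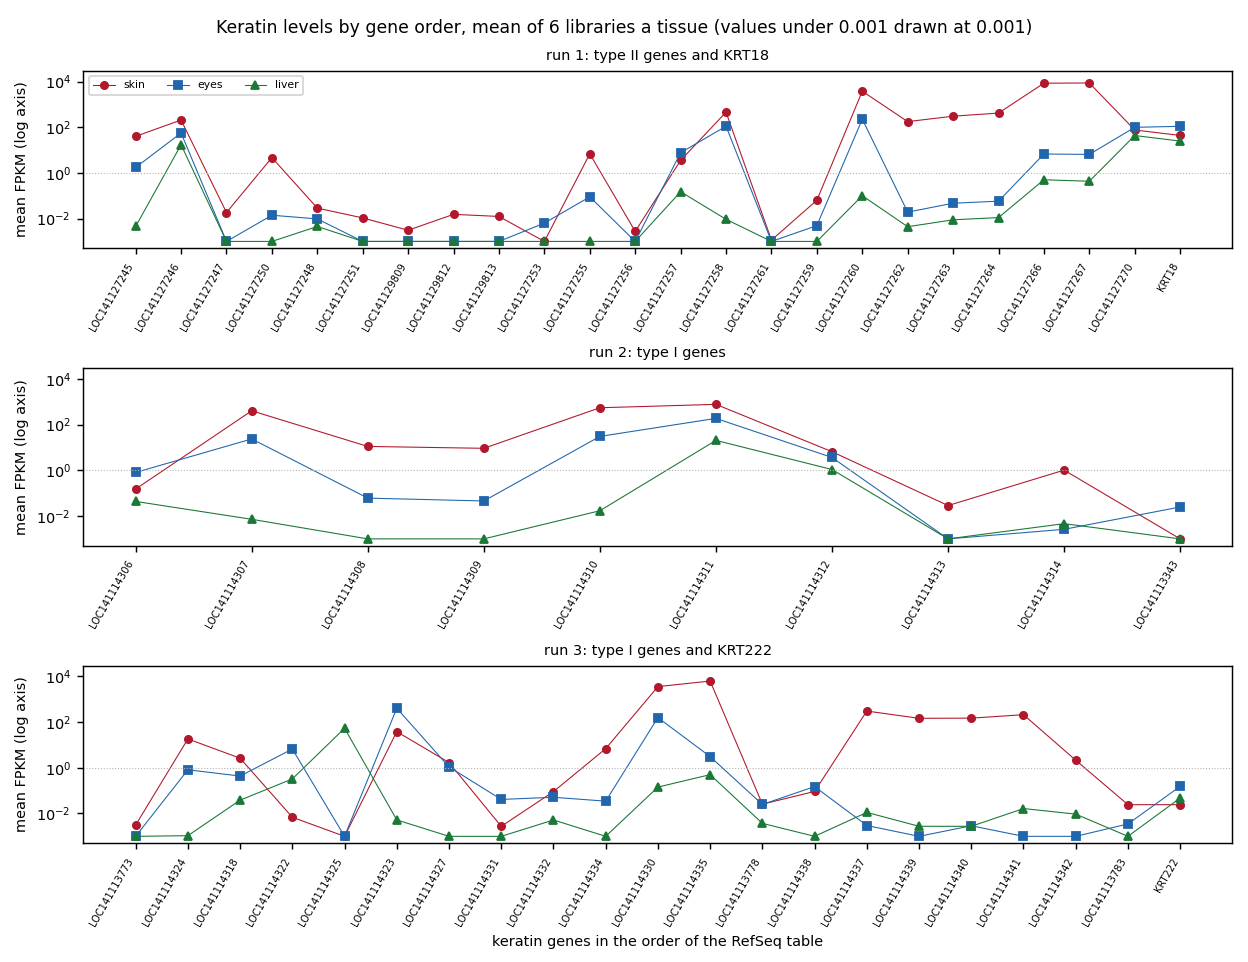
Mean FPKM over the 6 libraries of each tissue on a log axis, for the members of the 3 runs in their RefSeq order. Values under 0.001 are drawn at 0.001, and the dotted line marks 1 FPKM. Neighbouring genes differ by several orders of magnitude, and for KRT18 and LOC141127270 at the end of the first run all 3 tissues lie above the dotted line.

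Tissue tests compared libraries of 1 genotype by edgeR's quasi-likelihood test with Benjamini-Hochberg (BH) adjustment over all genes tested, and a call is an adjusted p under 0.05. These counts include only members with enough counts in the higher tissue to be tested, so they describe the pattern and do not add support to it. Against liver, 34 of 38 tested members were higher and 2 lower in wild-type skin, where 25.3% of all genes were higher and 19.1% lower. In albino skin 33 of 38 were higher and 2 lower, against 24.0% and 21.5% of all genes. Against eyes, 30 of 40 were higher and 6 lower in wild-type skin (26.6% and 29.2% of all genes), and 31 of 39 higher and 5 lower in albino skin (29.2% and 30.1%). Eyes against liver gave 15 higher and 1 lower of 24 members in wild-type (38.6% and 30.4% of all genes) and 19 higher and 1 lower of 25 in albino frogs (38.1% and 30.3%).

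The exceptions to the skin pattern were few. LOC141114323, a keratin 12-like gene, was the most abundant keratin of the eyes, at 186, 351 and 201 FPKM in wild-type and 724, 428 and 547 FPKM in albino eyes. In skin it had 20.01 ± 5.04 and 56.6 ± 15.5 FPKM, and the log2 difference of skin minus eyes was -3.59 ± 0.38 (SE) in wild-type and -2.93 ± 0.29 in albino frogs (adjusted p = 0.000245 and 9.03e-05). The keratin 75-like LOC141127257, KRT18, KRT222 and the keratin 42-like LOC141114322 were also called higher in eyes than in skin in both genotypes. LOC141114322 had 0 counts in albino skin and was at least 121-fold higher in albino eyes by the floor of 3 counts over the group. LOC141114306 was called in wild-type only, with adjusted p = 0.0999 in albino frogs, and the difference between the genotypes was not called (2.17 ± 0.95, adjusted p = 0.347). The levels of LOC141127257 were 8.47 ± 3.26 FPKM in wild-type eyes and 4.06 ± 1.23 FPKM in wild-type skin.

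After LOC141114323, the eyes had most of LOC141127260, LOC141114311, LOC141114330, LOC141127258, KRT18, LOC141127270 and LOC141127246, with means of 225, 189, 158, 110.3, 109, 98.9 and 55.7 FPKM. The skin genes LOC141127266 and LOC141127267 varied widely in eyes. LOC141127266 had 12.3, 0.0411 and 11.2 FPKM in wild-type and 6.13, 10.3 and 0.369 FPKM in albino eyes, so both genotypes held libraries with and almost without it. The 16 skin-only genes summed to 1.09 to 1.90 FPKM in eyes, against 867 to 2277 FPKM in skin.

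Liver had 1 keratin of its own. LOC141114325, a keratin 19-like gene of the third run, stood at 57.5, 45.6 and 45.5 FPKM in wild-type liver and 91.4, 42.9 and 40.3 FPKM in albino liver, and had 0 counts in all 12 skin and eye libraries. With the same floor, it was at least 2907-fold higher in wild-type liver than in wild-type skin and at least 3429-fold higher in albino liver than in albino skin. Against eyes these bounds were 2871 and 3334. The bounds cover counting error only.

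Most of the rest of the liver keratin came from the genes found in all 3 tissues. Over the 6 liver libraries LOC141127270, KRT18, LOC141114311, LOC141127246 and LOC141114312 averaged 43.2, 24.7, 20.5, 17.1 and 1.09 FPKM. They made up 49.7% to 79.4% of summed keratin FPKM in liver, 17.9% to 36.8% in eyes and 2.22% to 6.77% in skin. LOC141114335 and LOC141127266, next in rank, reached 0.503 and 0.4997 FPKM through wild-type 3 alone, which had 2.99 and 2.92 FPKM, while the other 5 liver libraries had at most 0.0279 FPKM of either. LOC141114336 stood at 6.47 FPKM in the same library and at most 0.0656 FPKM in the others.

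KRT18 and the keratin 8-like LOC141127270 were above 1 FPKM in every library of all 3 tissues. KRT18 had 29.4 ± 2.31 FPKM in wild-type skin, 64.5 ± 7.23 in eyes and 24.2 ± 6.05 in liver, and LOC141127270 had 70.2 ± 25.2, 60.6 ± 16.8 and 37.6 ± 20.7 FPKM. LOC141127270 was not called between any pair of tissues in either genotype. The ratio of KRT18 to LOC141127270 FPKM was 0.294 to 0.779 in skin, 0.939 to 1.42 in eyes and 0.281 to 1.10 in liver. Orders between liver and the other tissues depend on scaling, since library totals in place of TMM (trimmed mean of M values, edgeR's scaling) moved the median log2 difference of all genes from 0.08 to 1.00 between wild-type skin and liver.

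Whether keratin expression differed between genotypes was asked in each tissue. Summed keratin FPKM averaged 31794 ± 2783 in wild-type and 38551 ± 9760 in albino skin, a ratio of 1.21, and the groups overlapped. In liver it averaged 142 ± 23.7 and 184 ± 17.2 FPKM, a ratio of 1.30 with overlap. In eyes it averaged 996 ± 161 and 1907 ± 429 FPKM, a ratio of 1.91, and every albino library (1509.6 to 2362) lay above every wild-type library (874 to 1179). FPKM are scaled to library totals, and with that scaling the median of all genes' log2 differences was 0.28 in eyes and -0.28 in liver, against 0.01 and 0.00 under TMM. These sums were not tested.

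In skin no keratin gene passed the test. Of 36 members tested, 0 were called by edgeR's quasi-likelihood test, in a comparison in which 0.0946% of all 16921 genes were called (0.0591% higher and 0.0355% lower). At an unadjusted p under 0.05 there were 10 members, a level reached by 13.0% of all genes. The FPKM of the groups did not overlap for 9 members higher and 3 lower in albino skin, against 6.83% and 8.20% of all genes. Their median log2 difference was 0.20, against 0.01 for all genes. DESeq2 called 7 members (6 higher, 1 lower) and 4.50% of all genes, and 1 fit of all 18 libraries called 4 members and 3.36% of all genes. With limma on log2 FPKM, 1 member and 0.544% of all genes were called with 1 added, and 2 members and 0.727% with 0.1 added. Settings with more keratin calls also called more of all genes. Whether the share of keratin genes called differed from that of all genes was not tested.

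The members with the smallest p in skin were 5 type I genes that were higher and 1 that was lower in albino libraries, with adjusted p from 0.0880 to 0.168. LOC141114310, a keratin 19-like gene, had 214, 256 and 173 FPKM in wild-type and 548, 716 and 1397 FPKM in albino skin, for a log2 difference of 2.05 ± 0.36 (adjusted p = 0.102). LOC141114309, its neighbour, had 2.88, 1.55 and 1.41 against 23.1, 5.85 and 20.5 FPKM, a log2 difference of 3.22 ± 0.61 (adjusted p = 0.122). All albino libraries were above all wild-type libraries for both.

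LOC141114323, the main keratin of the eyes, had 24.5, 21.0 and 14.5 FPKM in wild-type and 47.3, 48.0 and 74.5 FPKM in albino skin, for a log2 difference of 1.55 ± 0.24 (adjusted p = 0.0880). LOC141114337, keratin 12-like, had 175, 146 and 131 against 487, 250.5 and 642 FPKM, with a log2 difference of 1.67 ± 0.40 (adjusted p = 0.168). Its neighbour LOC141114339, also keratin 12-like, had the opposite sign, with 239, 235 and 217 FPKM in wild-type and 71.2, 41.0 and 79.6 FPKM in albino skin, for a log2 difference of -1.79 ± 0.35 (adjusted p = 0.124). These adjacent copies of the same name thus had opposite signs, each without overlap between groups, and neither passed the test.

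KRT18 in skin had 30.8, 30.6 and 26.7 FPKM in wild-type and 55.4, 76.6 and 41.8 FPKM in albino libraries, a log2 difference of 1.01 ± 0.27 (adjusted p = 0.194). Leaving out wild-type 2 gave 1 call in skin, the cochleal-like LOC141127250, at 4.07 ± 0.40 (adjusted p = 0.0388). In the full comparison this gene had 0.296, 14.9 and 0.203 FPKM in wild-type and 4.11, 5.38 and 3.12 FPKM in albino skin, a log2 difference of -0.15 ± 1.41. Wild-type 2 alone therefore decided its direction.

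The 16 skin-only genes had a median log2 difference of -0.20 in skin, with 5 positive, among them LOC141114309 and LOC141114337. The 14 genes shared with eyes had a median of 0.61, with 12 positive. None was called by edgeR, and the difference between the sets was not tested. Against the wild-type mean, the median of the skin-only genes was 0.04 in albino 1, -0.42 in albino 2 and 0.10 in albino 3, so it was negative in 1 of 3 albino libraries. Albino skin 2 was lowest for the skin-only sum, at 867 FPKM against 1480.0 to 2277 FPKM in the other 5 libraries. It is the library with the skeletal muscle counts given above, and the part of that in the result was not tested.

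**Figure D4:**
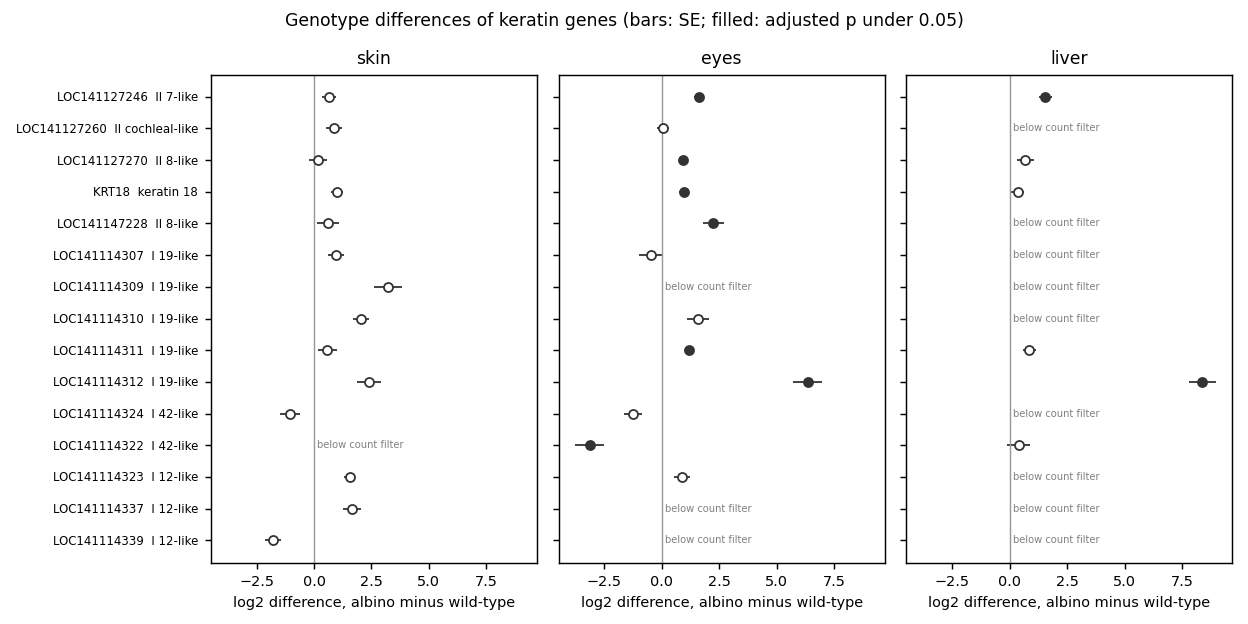
Log2 difference of albino minus wild-type for 15 keratin genes in skin, eyes and liver, on TMM-scaled counts, with SE as bars. The genes shown are those with an unadjusted p under 0.05 by edgeR in any of these tissues, so members with weaker differences are left out. Filled points have an adjusted p under 0.05, and genes with too few counts in a tissue are marked as below the count filter. No point is filled in skin, 7 are filled in eyes and 2 in liver, where the value of LOC141114312 depends on the prior count because its wild-type group had 1 count.

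In liver 2 keratin genes were called higher in albino frogs. Of 8 members tested, 2 were called higher and 0 lower, in a comparison where 5.76% of 14990 genes were called (2.86% higher and 2.90% lower). LOC141114312, among these 2, was tested only because of its albino libraries, where it was high, so its call adds no support to the count. The median log2 difference of the members was 0.77, against 0.00 for all genes. The FPKM of the groups did not overlap for the same 2 members, both higher, against 6.24% of all genes higher and 28.1% lower.

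LOC141114312, keratin 19-like, had 0.0167, 0 and 0 FPKM in wild-type liver and 2.02, 1.95 and 2.55 FPKM in albino liver. The wild-type group held 1 count of it and the albino group 393. By library totals multiplied by their TMM factors the ratio was 473, with a 95% counting interval of 84.3 to 18714. LOC141114312 passed the count filter through the albino libraries alone. The fitted log2 difference was 8.39 ± 0.60 (adjusted p = 0.000370), a size set by the prior count, and it ran from 1.65 (limma with 1 added to FPKM) to 10.15 (without wild-type 1) over the alternatives.

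LOC141127246, keratin 7-like, had 13.0, 8.03 and 9.03 FPKM in wild-type and 18.3, 19.5 and 34.7 FPKM in albino liver. Its log2 difference was 1.55 ± 0.28 (adjusted p = 0.0206). All albino libraries were above all wild-type libraries. The adjusted p rose to 0.116, 0.0996, 0.0736 and 0.0563 without wild-type 2, wild-type 3, albino 2 and albino 3, and to 0.106 with the alike wild-type libraries 2 and 3 summed into 1.

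The other liver members tested were not called. LOC141114311 had 18.3, 13.4 and 18.2 FPKM in wild-type and 15.3, 24.3 and 33.6 FPKM in albino liver, a log2 difference of 0.85 ± 0.29 (adjusted p = 0.129), and the groups overlapped. Without albino 1 it was called, at 1.12 ± 0.19 (adjusted p = 0.0169). LOC141127257 was not among the 8 members tested, being below the count filter in the full comparison. It entered the fit without albino 1 and was called there at 5.07 ± 0.87 (adjusted p = 0.0175), resting on few liver counts. LOC141127270, at 0.68 ± 0.39 (adjusted p = 0.347), was called without wild-type 1, at 1.23 ± 0.27 (adjusted p = 0.0295). LOC141114325, the keratin of liver alone, had a log2 difference of 0.49 ± 0.29 (adjusted p = 0.363), KRT18 0.35 ± 0.29 (adjusted p = 0.517) and KRT222, a gene near the count filter, 1.42 ± 0.97 (adjusted p = 0.430).

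Markers of other cells also differed between the liver groups, and their part in the keratin results was not tested. Of 7 matched markers of bile duct and simple epithelium, 6 were tested, all at an unadjusted p under 0.05, of which 2 were positive and 4 negative. The 1 called was ANXA4, a calcium-dependent membrane-binding protein, at 1.08 ± 0.23 (adjusted p = 0.0340). Their median log2 difference was -0.68, and their summed level was 127 to 156 CPM in wild-type and 165 to 208 CPM in albino liver. Of 4 erythrocyte markers 3 were called higher, with sums of 3623 to 6825 CPM in wild-type and 6269.6 to 12518 CPM in albino liver. Of 4 macrophage and granulocyte markers 2 were called lower, with sums of 598 to 1046 and 198 to 399 CPM. The fibrinogen genes FGG and FGB were called higher among 8 hepatocyte genes tested.

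In eyes 7 keratin genes differed between genotypes. Of 26 members tested, 6 were higher and 1 lower in albino frogs, where 11.2% of all 17817 genes were called (5.10% higher and 6.10% lower). LOC141114312, among the 6, was tested because of its albino libraries, so its call adds no support to the count. The FPKM of 9 of the 26 members higher and 2 lower did not overlap between groups, against 32.3% and 8.33% of all genes. These shares of members are near those of all genes, so a lack of overlap in eyes does not set the keratin genes apart. The median log2 difference of the members was 0.26, against 0.01 for all genes. Of the 6 called higher, KRT18, LOC141127270, LOC141114311 and LOC141127246 were above 1 FPKM in every library of every tissue.

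LOC141114312 had 0.124, 0.0926 and 0 FPKM in wild-type eyes, from 7, 5 and 0 counts, and 7.64, 6.01 and 8.12 FPKM in albino eyes, from 406, 338 and 452 counts. Its log2 difference was 6.35 ± 0.62 (adjusted p = 0.00253), with 2.94 to 6.88 over the alternatives. It entered the eye test through the albino libraries, where it was high. LOC141127246 had 24.1, 17.8 and 30.4 FPKM in wild-type and 99.7, 70.2 and 92.2 FPKM in albino eyes, a log2 difference of 1.60 ± 0.19 (adjusted p = 0.00462). The call of LOC141127246 held with each library left out and under every other alternative run in eyes.

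The keratin 8-like LOC141127270 had 75.2, 42.2 and 64.2 FPKM in wild-type and 158, 139.9 and 113 FPKM in albino eyes, a log2 difference of 0.93 ± 0.16 (adjusted p = 0.0161). KRT18, its neighbour and in mammals its filament partner, had 72.9, 60.01 and 60.7 FPKM against 211, 145 and 107 FPKM, a log2 difference of 0.98 ± 0.22 (adjusted p = 0.0325). LOC141114311, the neighbour of LOC141114312, had 113, 90.9 and 99.1 FPKM against 358, 194 and 275 FPKM, a log2 difference of 1.18 ± 0.21 (adjusted p = 0.0164). In each of the 3 genes every albino library was above every wild-type library. Their calls were near the threshold: LOC141127270 was not called without albino 1 or albino 2 (adjusted p = 0.0561 and 0.0560), LOC141114311 not without wild-type 2 or 3 (0.0587 and 0.0534), and KRT18 in 5 of 6 such fits, all but that without albino 3 (0.0539 to 0.0921).

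LOC141147228, the second keratin 8-like gene, was low in eyes, with 0.282, 0.539 and 0.328 FPKM in wild-type and 1.71, 1.79 and 3.21 FPKM in albino libraries. Its log2 difference was 2.24 ± 0.46 (adjusted p = 0.0242), and it was called in only 1 of the 6 fits without a library, that without wild-type 2, with 0.0507 to 0.0735 in the others. Its neighbour, the keratin 18-like LOC141147229, had 5.12, 0.252 and 3.35 FPKM against 7.39, 5.43 and 2.61 FPKM, and with 0.62 ± 0.86 (adjusted p = 0.677) it was not called.

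The keratin 42-like LOC141114322 was the 1 gene called lower, and the 1 gene over 1 FPKM in eyes alone. It had 5.96, 16.7 and 12.3 FPKM in wild-type and 2.89, 0.792 and 1.30 FPKM in albino eyes, a log2 difference of -3.15 ± 0.65 (adjusted p = 0.0338). The groups did not overlap. It was not called without wild-type 2, wild-type 3, albino 1, albino 2 or albino 3, with adjusted p from 0.0525 to 0.0927.

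LOC141114323, although the most abundant keratin of the eyes and without overlap between groups, had a log2 difference of 0.88 ± 0.36 (adjusted p = 0.154). It was called without wild-type 2 (1.36 ± 0.25, adjusted p = 0.0417) and with library totals as scaling (1.20 ± 0.29, adjusted p = 0.0214). DESeq2 (0.86 ± 0.32, adjusted p = 0.0369) and limma with 1 or 0.1 added to FPKM (adjusted p = 0.0224 and 0.0236) called it too. LOC141114310 had 23.9, 9.503 and 7.33 FPKM against 61.0, 29.7 and 52.2 FPKM, a log2 difference of 1.58 ± 0.47 (adjusted p = 0.0828). Without wild-type 1 it was called, at 2.12 ± 0.37 (adjusted p = 0.0298), as was LOC141114324 as lower, at -1.56 ± 0.32 (adjusted p = 0.0293). DESeq2 called LOC141114310 (adjusted p = 0.000582) and LOC141114324 as lower (adjusted p = 0.00896). The limma fits with 1 or 0.1 added called LOC141114310 (adjusted p = 0.0423 and 0.0465).

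Markers of other eye tissues are given beside these results, and their part in the keratin results was not tested. The lens levels given above were lower in every albino eye, with 0 of 6 lens genes called by edgeR (1 at an unadjusted p under 0.05). Albino 3 had a lens sum of 28552 CPM, below every wild-type eye. The 6 genes called higher were above all 3 wild-type libraries there too. Albino 3 was among the libraries that gave those calls, so its values are no separate test. The 10 skeletal muscle genes summed to 1459 to 4417 CPM in wild-type and 4685 to 10148 CPM in albino eyes, with 1 called higher. Of 9 corneal and conjunctival markers 3 were matched, with 0 called by edgeR and a median log2 difference of -0.27. Their sum was 402 to 457 CPM in wild-type and 479 to 632 CPM in albino eyes, where TKT was positive (0.41 ± 0.18) and PAX6, at the only unadjusted p under 0.05, was negative (-0.35 ± 0.11). The 7 simple epithelium markers summed to 122 to 164 CPM and 145 to 260.0 CPM, with 0 of 5 tested called by edgeR and 1 at an unadjusted p under 0.05. Of 4 macrophage and granulocyte markers 2 were called lower.

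**Figure D5:**
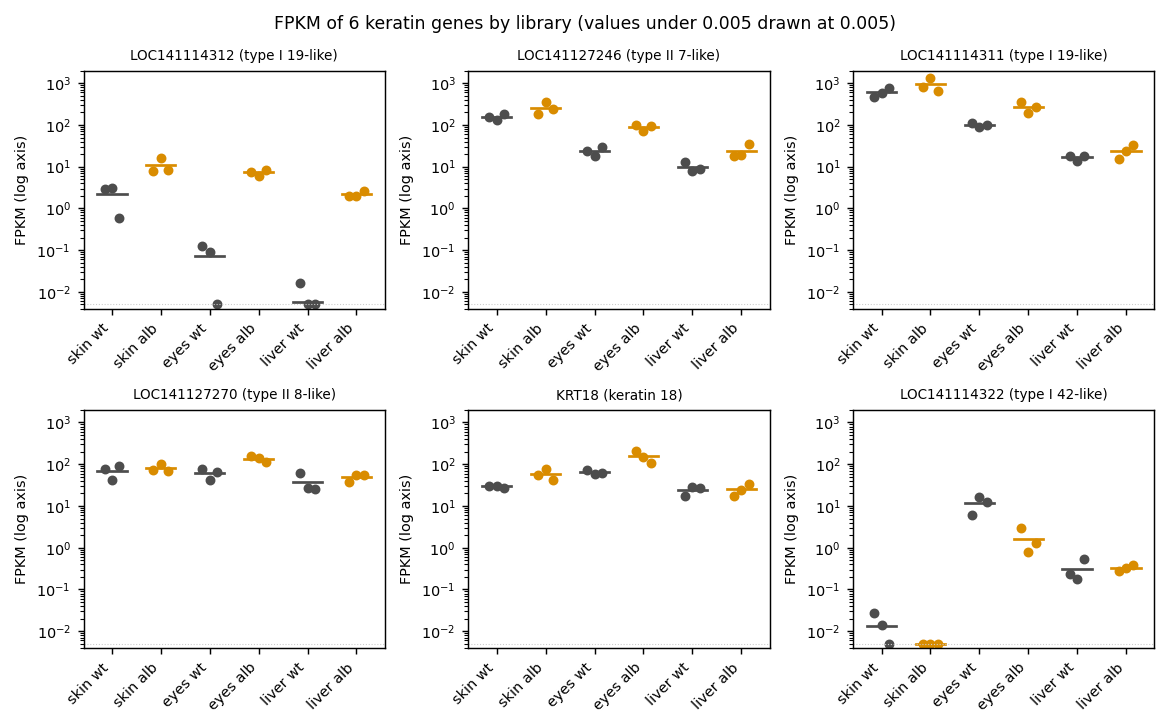
FPKM of 6 keratin genes in each library on a log axis, with the mean of each group as a bar, wild-type in grey and albino in orange. Values under 0.005 are drawn at 0.005 on the dotted line. LOC141114312 is separated by genotype in eyes and liver and by less in skin, and LOC141114322 is lower in albino eyes.

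Tests of the genotype effect between tissues asked whether a difference was larger in 1 tissue than in another. Between skin and liver, 1 of 39 tested members was called, in a comparison where 0.27% of all genes were called. LOC141114312 had a log2 difference of 2.38 ± 0.52 in skin (adjusted p = 0.152), where wild-type libraries already held 2.96, 3.09 and 0.596 FPKM and albino libraries 7.78, 16.4 and 8.53 FPKM. The effect in skin minus that in liver was -6.16 ± 1.02 (adjusted p = 0.0347), and its size rests on the liver value, which 1 wild-type count and the prior count set. The call was lost in 9 of the 12 fits without 1 library (adjusted p from 0.0517 to 0.147) and held without skin wild-type 3, skin albino 2 or liver albino 1.

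Between skin and eyes, 0 of 40 tested members were called by edgeR, with 0.991% of all genes called and 6 members at an unadjusted p under 0.05 (13.4% of all genes). DESeq2 called 1, LOC141114312. In the edgeR test, which was unpaired, LOC141114312 had -3.97 ± 0.91 (adjusted p = 0.0685). With the replicate number as a block, which pairs skin and eyes of the same number, it was called at -4.06 ± 0.61 (adjusted p = 0.0276), and without skin wild-type 3 at -4.37 ± 0.73 (adjusted p = 0.0339). Without skin wild-type 2, LOC141127250 was called at 6.15 ± 1.15 (adjusted p = 0.0448). The members next in order were LOC141127246 and LOC141147228, at -0.93 ± 0.37 and -1.65 ± 0.68 (adjusted p = 0.301 and 0.318).

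Between eyes and liver, 1 of 27 tested members was called, with 3.42% of all genes called. LOC141114322 was lower in albino eyes and not in albino liver, where it had 0.318 ± 0.196 FPKM in wild-type and 0.335 ± 0.0549 FPKM in albino libraries. The effect in eyes minus that in liver was -3.56 ± 0.81 (adjusted p = 0.0372), and the call was lost in 8 of 12 fits without 1 library (adjusted p from 0.0646 to 0.102), holding without eyes wild-type 1, eyes albino 1, liver wild-type 3 or liver albino 1. LOC141127257 and LOC141127260 were next, at -5.21 ± 1.40 (adjusted p = 0.0730) and 7.76 ± 3.15 (adjusted p = 0.250), both resting on few liver counts. LOC141127257 was called without liver albino 1 between eyes and liver (adjusted p = 0.00842) and between skin and liver (adjusted p = 0.0193).

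Between skin and liver, the genes next after LOC141114312 were LOC141127257 at -4.94 ± 1.30 (adjusted p = 0.201) and LOC141127260 at 8.43 ± 2.66 (adjusted p = 0.309). In liver LOC141127260 had 54 counts in wild-type, nearly all in wild-type 3 (0.0111, 0.0111 and 0.580 FPKM), and 0 in albino libraries. Its skin libraries had 1766 to 6874 FPKM.

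Genes that work with keratins were described by the same fits, in which 0.0946%, 5.76% and 11.2% of all genes were called in skin, liver and eyes and 13.0%, 22.5% and 29.8% had an unadjusted p under 0.05. Of 13 matched linkers and partners of keratin filaments, 0 were called in skin by edgeR (2 at an unadjusted p under 0.05), 1 higher in liver and 2 lower in eyes, with median log2 differences of 0.43, 0.20 and -0.57. Periplakin (PPL), a plakin that links keratins to the cell border, was higher in albino liver by 1.18 ± 0.28 (adjusted p = 0.0461). In eyes PNN, a pinin protein of desmosomes and of nuclear speckles, had -1.14 ± 0.23 (adjusted p = 0.0223), and TCHP, a keratin-binding protein, -0.63 ± 0.16 (adjusted p = 0.0462). In skin PLEC, the cytolinker plectin, had 1.18 ± 0.30 and PNN 1.17 ± 0.27, not called (adjusted p = 0.177 and 0.161).

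Desmosomes anchor keratins at cell junctions. Of their genes 8 were matched, of which 8, 7 and 8 were tested in skin, liver and eyes. By edgeR 0 were called in skin and in liver, with 1 at an unadjusted p under 0.05 in each, and in eyes PERP was higher by 0.87 ± 0.18 (adjusted p = 0.0242) and the plakophilin PKP4 lower, at -1.11 ± 0.17 (adjusted p = 0.0102). Medians were 0.05, 0.04 and 0.14 in skin, liver and eyes. Hemidesmosomes and basement membrane anchor keratins at the base of the cell. Of 9 of their genes, 9, 5 and 9 were tested in skin, liver and eyes. Only the tetraspanin CD151 was called, at -0.90 ± 0.20 in liver (adjusted p = 0.0376). Medians were 0.17, -0.11 and 0.06, while 0 genes in skin and 2 in eyes had an unadjusted p under 0.05. Of 15 transcription and signalling regulators of the epidermis, 15, 7 and 14 were tested in skin, liver and eyes. CEBPA was called lower in liver, where it is also a hepatocyte regulator, at -1.0 ± 0.24 (adjusted p = 0.0473). In skin 3 and in eyes 2 of that list had an unadjusted p under 0.05 with 0 called by edgeR, and its medians were -0.29, 0.12 and 0.18.

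Of 8 matched genes of the cornified envelope and barrier, 7 were tested in each tissue. None of those tested was called by edgeR, with 0, 2 and 0 at an unadjusted p under 0.05 in skin, liver and eyes. In skin transglutaminase 1 (TGM1), which crosslinks the envelope, had -0.55 ± 0.37, and the medians were -0.20, 0.30 and 0.07. Of 14 other intermediate filament genes, 9, 7 and 14 were tested in skin, liver and eyes. In skin 0 were called by edgeR (4 at an unadjusted p under 0.05). Vimentin (VIM) was higher in albino liver by 0.99 ± 0.23 (adjusted p = 0.0443), and 4 genes were lower in albino eyes. The lowest p in eyes were of the neurofilament gene NEFM at -1.52 ± 0.20 (adjusted p = 0.00632), peripherin (PRPH) at -1.46 ± 0.24 (adjusted p = 0.0136) and the lamin LMNB1 at -1.17 ± 0.20 (adjusted p = 0.0146). The list holds BFSP1 and BFSP2 of the lens. Its medians were 0.47, 0.71 and -0.69.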

How the data were processed

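The authors' deposited count table holds unnormalized whole reads of each gene, and the authors' FPKM are those counts divided by gene length and library total. HISAT2 and HTSeq are named, per the submitters' processing notes, without versions or settings, and genome build, strandedness and treatment of reads with several matches stay unstated. All 24636 gene identifiers matched RefSeq assembly ASM4218655v1, used for names and neighbour order only. Groups were taken from the labels' tissue and genotype.

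Counts were tested with edgeR 4.0.16 in R 4.3.3: filterByExpr within each comparison, TMM scaling, the robust quasi-likelihood test, and BH adjustment over all genes tested at 0.05. The SE is the log2 difference divided by the square root of F. Genotype was compared within each tissue, tissues within each genotype, and the genotype effect between tissues as an interaction. Alternatives were DESeq2 1.42.0, limma 3.58.1 on log2 FPKM with 1 or 0.1 added, scaling by RLE or library totals, all genes without a filter, all 18 libraries in 1 fit, the replicate number as a block, and each library left out.

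Equal replicate numbers were checked by correlating deviations from group means across genes. Skin and eyes of a number and genotype had r from 0.160 to 0.479, and albino and wild-type libraries had r from -0.155 to 0.0572. The main tests were unpaired in every comparison, and the replicate number entered only as a block among the alternatives. Liver with skin or eyes had r from 0.185 to 0.286 in albino frogs, over 0.1 for every pair, and from 0.0567 to 0.372 in wild-type frogs. Genes were named by rule: members called between genotypes, the 8 most abundant in each tissue, the 6 smallest p in each genotype test and 3 in each interaction test, LOC141114312, KRT18 and KRT222, and up to 3 genes with the smallest p of each related list. The remaining members in the text were singled out after their values were seen. The members, lists and naming rule were chosen with earlier results of these data known. Measurements of oxidative stress or UVB were not analysed here. Counting intervals cover counting error only.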

Additional observations from a re-analysis of the deposited data

Results flagged for a closer look

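The genotype effect on LOC141114312, the keratin 19-like gene, differed between skin and liver by the interaction test. Its log2 difference of albino minus wild-type was 2.38 in skin and 8.39 in liver, and the difference of these effects was -6.16 ± 1.02 (edgeR, adjusted p = 0.0347), with -8.42 to -5.66 over the alternatives. The liver value rests on 1 count in the wild-type group and ran from 1.65 to 10.15 over the alternatives, and the call was lost in 9 of the 12 fits without 1 library.

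The effect on the keratin 42-like LOC141114322 differed between eyes and liver. Its log2 difference was -3.15 in eyes and 0.39 in liver, and the difference of these effects was -3.56 ± 0.81 (edgeR, adjusted p = 0.0372). The call was lost in 8 of the 12 fits without 1 library.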

How the results depend on the processing

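None of the genotype and interaction values called by edgeR for a named keratin changed sign under the alternatives run, and the tissue calls were followed as counts. LOC141127250 in skin, not called at -0.15, was called at 4.07 without wild-type 2. In skin, where edgeR called 0 keratin genes, DESeq2 called 7, limma with 1 added 1, limma with 0.1 added 2 and the fit of all 18 libraries 4, beside 757, 92, 123 and 680 genes in all against 16, and leaving out 1 library gave 0 to 1. In liver, where 2 were called, the replicate block and the sum of wild-type 2 and 3 gave 1 each (791 and 147 genes in all against 864), the fit of all 18 libraries gave 4 (1097 genes), and leaving out 1 library gave 1 to 4. In eyes, where 7 were called, the fit of all 18 libraries gave 3 (764 genes in all against 1995) and leaving out 1 library 3 to 7. Alternatives also added calls in eyes: LOC141114310 and LOC141114323 by DESeq2 and both limma fits, LOC141114324 by DESeq2, and LOC141114323 with library totals. For the genotype effect between skin and liver (1 call), DESeq2 gave 5 (381 genes in all against 49), library totals 0 (33 genes) and leaving out 1 library 0 to 2. The calls that DESeq2 added were LOC141127257, LOC141127260, LOC141127266 and LOC141127267. Wild-type liver counts of all but LOC141127257 lay nearly all in wild-type 3. Between skin and eyes (0 calls), DESeq2 and the replicate block gave 1 each (952 and 239 genes in all against 193) and leaving out 1 library 0 to 1. Between eyes and liver (1 call), DESeq2 gave 3 (1697 genes in all against 654) and leaving out 1 library 0 to 2. LOC141127257 and LOC141127260 were the calls added by DESeq2 here and by the liver fit of all 18 libraries. The causes were not tested.

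Albino and wild-type libraries share replicate numbers only, and with these as a block LOC141127246 in liver (adjusted p = 0.0510), LOC141147228 in eyes (0.0513) and LOC141114322 in eyes (0.136) were not called, leaving 5 calls in eyes. LOC141114322 in eyes was also not called without the count filter (0.0640). With the block the tissue comparisons gave 36 and 36 calls for skin against liver, 37 and 36 for skin against eyes, and 15 and 20 for eyes against liver, in wild-type and albino frogs. The share of all genes called with the block in eyes and between tissues is not given here, so nothing is read from these counts. The summed keratin ratios moved little with shares of counts (1.19 in skin, 1.32 in liver, 1.84 in eyes) or without the most abundant member (1.28, 1.36 and 1.79). Adding LOC141114336, an alternative chosen after seeing the data, gave ratios of 1.22, 1.28 and 1.89 and left the counts of called members at 0, 2 and 7. limma on FPKM was not run for the interaction tests. In liver, some members other than the 6 expressed ones also held counts. LOC141127266, LOC141127267 and LOC141114335 had 319, 274 and 221 counts in wild-type liver and 2, 3 and 1 in albino liver. Nearly all of these wild-type counts came from a single library, wild-type 3, so they do not describe the wild-type group.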
